A study of Mus musculus with 12 samples.

Results

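Imprinted genes are transcribed mainly from the chromosome inherited from the mother or mainly from the one inherited from the father. The genes described here are 35 known mouse imprinted genes, chosen from textbook knowledge by name and by having a row among the 23423 rows of the expression table. No level or fold change entered that rule, but the names were picked with earlier results of these data known. Of the 35 genes, 30 reached the minimum for testing, a level of 1 CPM (the reads of a gene per 1000000 assigned reads) or more in 2 or more libraries. The reads were counted per gene, so the parental origin of the transcripts was not measured, and imprinting is a known property of these genes and not a result.

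The libraries were made from polyadenylated RNA of heart cells of CD1 mice, an outbred strain, taken at postnatal day 1.5. There were 4 cultured groups and 2 groups of fresh cells, with 2 libraries in each. In the cultures, Thy1-sorted cardiac fibroblasts had been plated overnight in serum-rich medium, infected, moved to the reprogramming medium and collected 3 days later. The series describes these bulk libraries as controls for single-cell work and as a test of splicing after loss of Ptbp1. The MGT + shPtbp1 group received a retrovirus for Mef2c, Gata4 and Tbx5 (MGT, factors that push fibroblasts towards a cardiomyocyte state) and a lentiviral hairpin against Ptbp1, which encodes a splicing repressor. The MGT + shNT group received MGT and a non-targeting hairpin, the MGT group received MGT without any hairpin virus, and the control group received the retroviral vector without the factors. Some labels of the control group name an empty vector and its titles name lacZ. The fresh cardiomyocytes (CM) came from a commercial neonatal isolation kit, and the fresh cardiac fibroblasts (CF) were the Thy1-sorted cells without culture. The labels do not say whether the 2 libraries of a group came from separate litters or wells, so the p-values measure the spread between those libraries, which may be technical.

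As background, imprinted expression is set by DNA methylation laid down in egg or sperm at control regions, and many control regions serve a cluster of neighbouring genes. Many of these genes act in fetal growth: Igf2 and its relatives promote it, whereas Cdkn1c, Grb10 and Igf2r restrain it, and in mouse many of them are turned down after birth. Plagl1, a zinc finger transcription factor, is known in mouse to activate several other imprinted genes, Igf2, H19 and Cdkn1c among them.

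Several of the genes whose levels differed most between groups carry a microRNA, and those microRNAs are shown because the transcripts that hold them are what was counted. H19 is the exonic host of miR-675, Igf2 holds miR-483 in an intron, and Mest holds miR-335 in an intron. The levels of the mature microRNAs were not analysed here. In the RefSeq sequences below, the capitals mark the seed, bases 2 to 8, and no 2 of the 6 seeds were the same.
mmu-miR-675-5p: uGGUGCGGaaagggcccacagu
mmu-miR-675-3p: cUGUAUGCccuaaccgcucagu
mmu-miR-483-5p: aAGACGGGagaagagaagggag
mmu-miR-483-3p: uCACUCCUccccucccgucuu
mmu-miR-335-5p: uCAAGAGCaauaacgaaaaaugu
mmu-miR-335-3p: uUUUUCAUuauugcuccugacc

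The promoter windows of Mest, Plagl1, Igf2 and Peg3 are shown because these genes stand at 4 separate loci and were each lower in control cultures than in fresh CF, as described further on. RefSeq gives several starts for Mest and Igf2, and a window that holds the letters searched for was picked: 2 nearly identical windows of 3 hold them for Mest, and 1 of 4 for Igf2. Each window runs from 250 bases before to 50 bases after a RefSeq start (GRCm38.p6) and is printed along the gene's own strand. Capitals mark TGCCGC or its complement GCGGCA in the first 3 windows, the letters that ZFP57, a zinc finger protein that keeps imprints, binds when methylated. In the Peg3 window, which holds no TGCCGC, they mark GGGGCCCC, the letters known for PLAGL1. The windows of Dlk1, Kcnq1ot1, Airn, Igf2r, Ndn and Magel2 hold neither set of letters. These genes were also lower in control cultures, so the windows shown are not typical of the lower genes.
Mest, chr6:30737800-30738099, plus strand: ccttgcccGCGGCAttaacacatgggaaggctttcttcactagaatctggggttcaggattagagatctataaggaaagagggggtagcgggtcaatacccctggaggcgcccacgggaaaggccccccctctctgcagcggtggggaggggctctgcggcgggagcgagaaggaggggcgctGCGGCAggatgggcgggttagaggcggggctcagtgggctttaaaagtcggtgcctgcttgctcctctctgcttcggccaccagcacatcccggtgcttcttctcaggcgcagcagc
Plagl1, chr10:13090582-13090881, plus strand: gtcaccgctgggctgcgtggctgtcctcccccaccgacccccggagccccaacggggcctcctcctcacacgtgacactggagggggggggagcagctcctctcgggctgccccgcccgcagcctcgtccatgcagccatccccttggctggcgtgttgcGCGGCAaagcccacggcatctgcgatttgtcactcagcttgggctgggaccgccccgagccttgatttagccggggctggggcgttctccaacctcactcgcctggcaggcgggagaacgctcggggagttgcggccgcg
Igf2, chr7:142661222-142661521, minus strand: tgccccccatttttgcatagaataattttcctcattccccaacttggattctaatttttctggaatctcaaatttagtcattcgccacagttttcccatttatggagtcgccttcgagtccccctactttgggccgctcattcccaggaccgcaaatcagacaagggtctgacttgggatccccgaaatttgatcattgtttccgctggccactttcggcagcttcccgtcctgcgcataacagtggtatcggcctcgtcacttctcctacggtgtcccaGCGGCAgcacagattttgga
Peg3, chr7:6730370-6730669, minus strand: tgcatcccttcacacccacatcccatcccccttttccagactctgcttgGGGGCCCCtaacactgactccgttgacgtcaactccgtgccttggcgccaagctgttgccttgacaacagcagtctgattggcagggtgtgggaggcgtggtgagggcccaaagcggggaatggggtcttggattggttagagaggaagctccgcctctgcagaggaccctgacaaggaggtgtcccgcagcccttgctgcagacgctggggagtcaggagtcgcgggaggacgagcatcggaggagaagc

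Both strands of every window were searched. TGCCGC stood in 11 of the 45 windows that RefSeq gives for 28 of the 35 genes (24.4%), against 11.6% of 32851 windows of all genes. GGGGCCCC, which reads the same on both strands, stood in 3 of the 45 windows (6.67%), against 1.08% of all windows, but 2 of the 3, those of Peg3 and Usp29, hold the same site in bases that both windows share. GCCATNTT, the letters of YY1, stood in 2 of the 45 (4.44%), against 6.05% of all. The windows of imprinted genes held a median of 13 CpG dinucleotides and all windows a median of 7, so they also differed in base composition. Windows of the same gene can overlap, and the windows of Peg3 and Usp29, which start on opposite strands, share 263 bases. A match to these letters describes the window only. H19, Rtl1, Cdkn1c, Peg10, Sgce, Impact and Trappc9 had no entry.

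Depth ran from 49320858 to 94005212 assigned reads. The labels were checked on the manipulated genes, given as CPM after scaling between libraries (scaled CPM). Ptbp1 was at 81.1 and 78.5 in MGT + shPtbp1 and 359.8 and 365 in MGT + shNT, although the source label of the second MGT + shPtbp1 library names shPtbp2. Mef2c was at 720.1 and 761 in MGT and 313 and 331 in control, and Tbx5 at 1770.4 and 1847 in MGT and 645 and 678 in control. Gata4 was at 683 and 701 in MGT and 341 and 375 in control. In fresh CF, Tbx5 was at only 6.94 and 7.52, Mef2c at 139 and 138 and Gata4 at 219 and 218. The control cultures thus stood above fresh fibroblasts in each delivered factor, and far above in Tbx5. Each difference between MGT and control is one between these levels. The identity of the fresh cells was checked on 8 cardiomyocyte and 8 fibroblast markers. Summed cardiomyocyte markers were at 13897 and 13204 in CM and 1349 and 1372 in CF, with all 8 higher in CM. Summed fibroblast markers were at 20613 and 20473 in CM and 38686 and 37756 in CF, with all 8 lower in CM, Thy1 of the sort among them, and remained plentiful there. Endothelial markers were plentiful in both, at 3490.4 and 3478 in CM and 2708 and 2758 in CF.

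**Figure D1:**
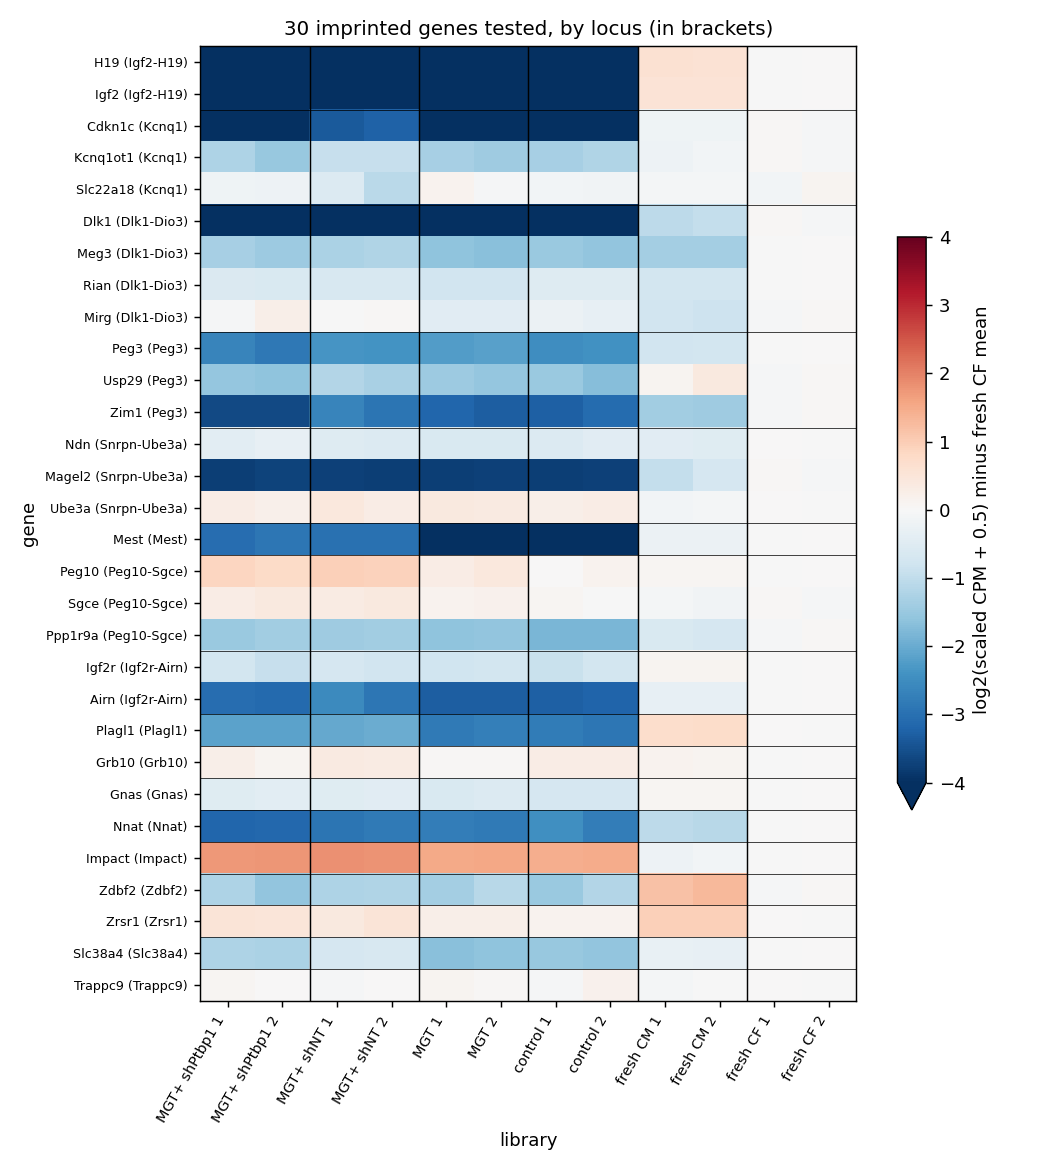
Level of the 30 imprinted genes tested in each of the 12 libraries, as log2(scaled CPM + 0.5) minus the mean of the fresh CF libraries, with genes grouped by locus and the locus in brackets. The colour scale ends at -4, and the darkest blue includes larger decreases such as that of H19 in the cultures, -6.51 in control. Most rows are blue in all 8 cultured libraries, whereas Impact is red there.

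Imprinted genes took a large share of the RNA of fresh cells and a small one of the cultures. The 35 genes together held 0.353% to 0.422% of the assigned reads in the 8 cultured libraries, 1.87% and 1.88% in CM, and 1.58% and 1.60% in CF. H19 and Igf2 alone held 0.0115% to 0.0204% in the cultured libraries, 1.18% in each CM library, and 0.790% and 0.806% in CF. To compare genes with each other, scaled CPM were divided by the summed exon length in kilobases. By this measure H19 was the highest of the 35 genes in fresh CF, at 1623 and 1664 CPM per kb. Igf2 followed at 606 and 618, Mest at 259 and 262, Gnas at 137 and 139 and Igf2r at 109.7 and 112 CPM per kb in CF. None of these neighbours in the CF order overlapped. In control cultures the highest was Gnas, which encodes the stimulatory G protein alpha subunit, at 86.8 and 87.2 CPM per kb. Grb10, an adaptor that dampens insulin and IGF receptor signalling, stood at 74.9 and 75.8 and Igf2r at 59.7 and 66.1 CPM per kb in control. Meg3 at 19.8 and 18.7 and H19 at 19.6 and 16.3 CPM per kb came next in control, and these last 2 overlapped.

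The comparison of control cultures with fresh CF asks how fibroblasts differ after 3 days of culture and infection with a vector. Of the 30 imprinted genes tested, 22 were lower in control cultures, 4 were higher and 4 were not called. Across all 13977 genes tested, 43.4% were lower and 43.5% higher in the same comparison at a limma adjusted p below 0.05. The median log2 fold change was -1.43 over the imprinted genes and 0.0038 over all genes. A log2 fold change below -1 was seen in 17 of the 30 imprinted genes (56.7%) and in 17.8% of all genes. Usp29 and Magel2 reached the minimum for testing only through the fresh cells, so they had to be lower in culture. Among the 28 genes with at least 1 CPM in both libraries of each group, 20 were lower and 4 higher, and 15 lay below -1 (53.6%), against 12.7% of the 12144 genes that met the same condition. This condition was added after the values had been seen. In bulk RNA, fewer cells of a type and less RNA per cell cannot be told apart.

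**Figure D2:**
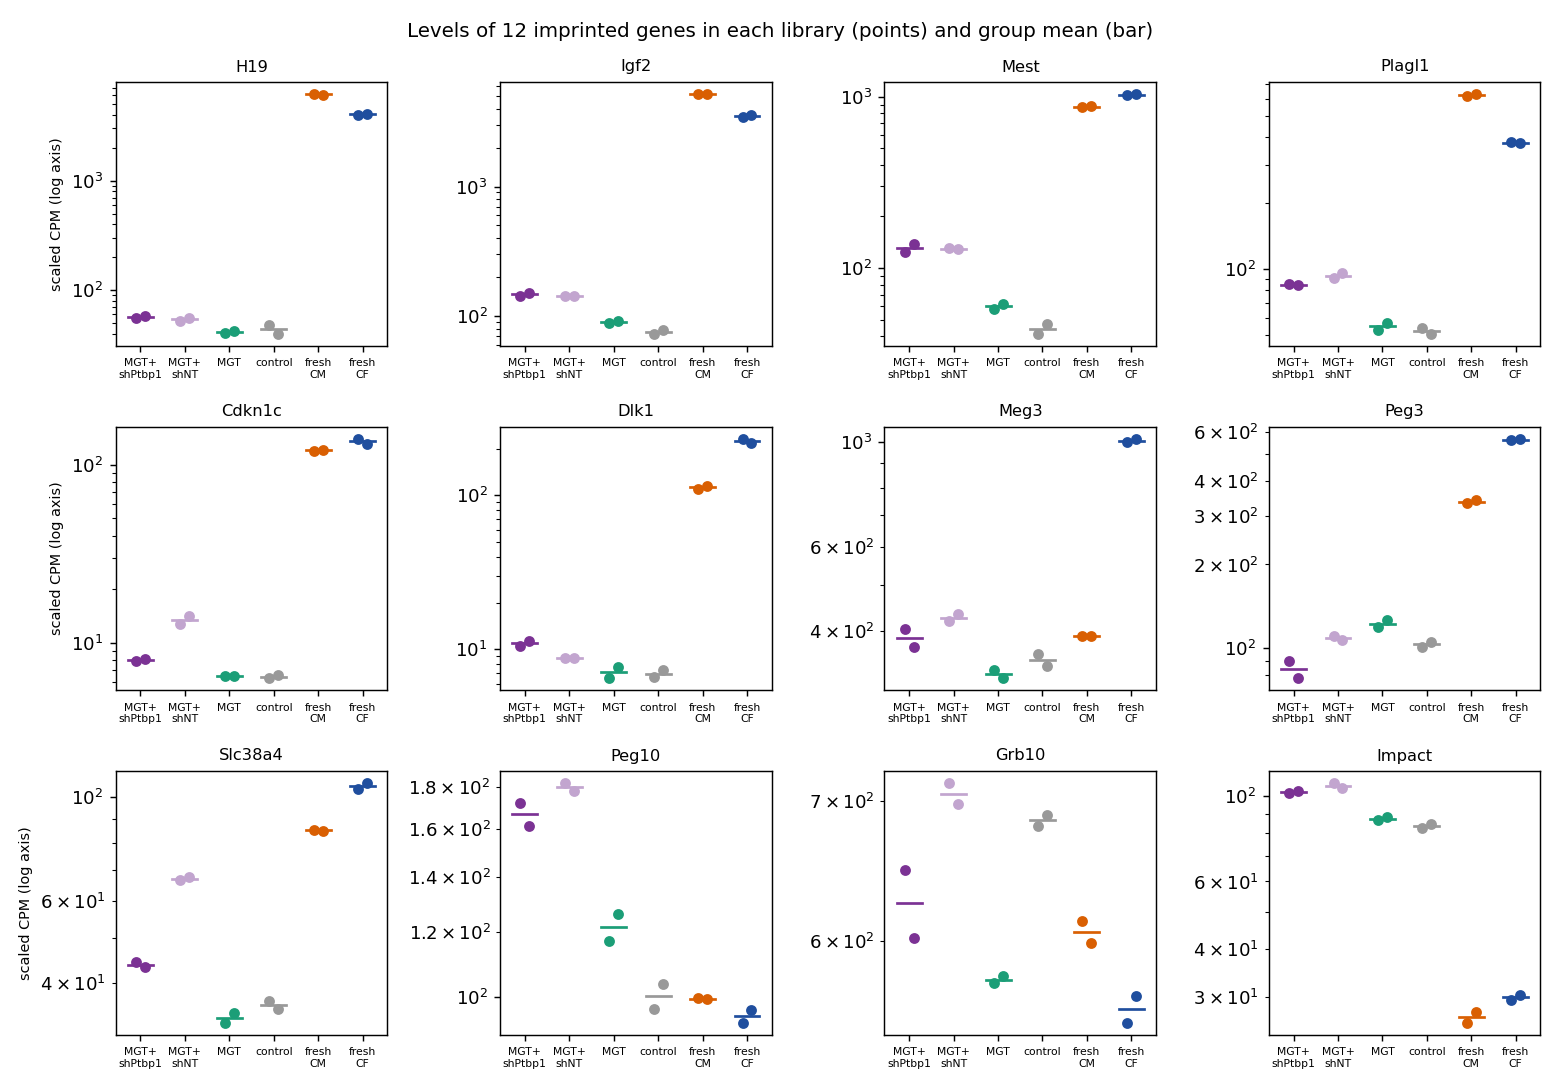
Scaled CPM of 12 imprinted genes on log axes that differ between panels; points are the 2 libraries of each group and bars their mean. H19, Igf2, Mest, Plagl1, Cdkn1c and Dlk1 stand far lower in all 4 cultured groups than in both fresh groups, while Peg10 and Impact are higher in the MGT + shNT libraries than in the fresh ones.

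Among the genes with at least 1 CPM in all 4 libraries, H19 and Igf2 of the insulin-like growth factor locus fell furthest. H19, a maternally expressed noncoding RNA (chr7:142575529-142578143, GRCm38 here and for the genes that follow), was at 48.1 and 40.1 scaled CPM in control cultures and 3993 and 4092 in fresh CF. That was 91.0-fold lower in control (log2 fold change -6.51 ± 0.058, limma adjusted p = 1.20e-24), with the control libraries far below the fresh ones. Igf2, the fetal growth factor beside it (chr7:142650766-142666816), was at 73.0 and 78.4 scaled CPM in control and 3466 and 3539 in CF, 46.0-fold lower (log2 fold change -5.52 ± 0.039, limma adjusted p = 2.36e-25). The 2 genes did not fall by the same amount: the ratio of H19 to Igf2 reads was 0.659 and 0.511 in control and 1.15 and 1.16 in CF. Igf2r, the receptor that carries IGF2 to lysosomes, was at 555 and 615 scaled CPM in control and 1021 and 1039.7 in CF, a much smaller decrease (log2 fold change -0.82 ± 0.055, limma adjusted p = 4.55e-11). Airn, the antisense noncoding RNA that silences Igf2r in cis on the paternal chromosome in mouse, was at 3.47 and 3.65 in control and 37.5 and 38.0 in CF (log2 fold change -3.24 ± 0.095, limma adjusted p = 8.19e-17). Igf2r and Airn thus both fell, Airn 9.43-fold and Igf2r 1.76-fold, and their exons share no bases in the annotation. The read ratio of the ligand Igf2 to the receptor Igf2r was 0.132 and 0.128 in control and 3.39 and 3.40 in CF.

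Plagl1, Cdkn1c and Mest, genes of the fetal growth program at other loci, also fell strongly. Plagl1 (chr10:13060504-13131694) was at 53.7 and 50.8 scaled CPM in control and 381 and 376 in CF, 7.19-fold lower (log2 fold change -2.85 ± 0.041, limma adjusted p = 1.48e-21). Cdkn1c, the cyclin-dependent kinase inhibitor p57 (chr7:143458339-143461050), was at 6.32 and 6.57 in control and 140.2 and 132 in CF, 19.7-fold lower (log2 fold change -4.30 ± 0.06, limma adjusted p = 9.32e-22). Kcnq1ot1, the noncoding RNA that silences Cdkn1c and its neighbours on the paternal chromosome in mouse, was at 9.60 and 10.4 in control and 25.4 and 24.0 in CF (log2 fold change -1.26 ± 0.082, limma adjusted p = 2.15e-11). The silencing RNA and the gene it silences were therefore both lower in control. Mest, an enzyme of the alpha/beta hydrolase family (chr6:30723547-30748465), was at 41.4 and 47.0 in control and 1022 and 1033 in CF, 23.0-fold lower (log2 fold change -4.53 ± 0.053, limma adjusted p = 7.80e-23). Its exons share 912 bases, 23.1% of their length, with Copg2 on the opposite strand, and the strand setting of the counting is not given in the sources used here. Copg2 itself was higher in control (log2 fold change 0.55, limma adjusted p = 5.01e-08). Slc38a4, an amino acid transporter, was at 36.7 and 35.3 in control and 104 and 107 in CF (log2 fold change -1.54 ± 0.041, limma adjusted p = 1.47e-17).

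The Dlk1-Dio3 cluster on chromosome 12 fell unevenly. Dlk1, a paternally expressed membrane protein related to Notch ligands (chr12:109452823-109463336), was at 6.58 and 7.32 scaled CPM in control and 233 and 219 in CF, 30.4-fold lower (log2 fold change -4.93 ± 0.072, limma adjusted p = 2.23e-21). Meg3, the first of the maternally expressed noncoding RNAs of the cluster (chr12:109541001-109571726), was at 358 and 339 in control and 997 and 1014 in CF (log2 fold change -1.53 ± 0.042, limma adjusted p = 2.92e-17). Rian, which holds small nucleolar RNAs, was at 212 and 212 in control and 302 and 302 in CF (log2 fold change -0.51 ± 0.031, limma adjusted p = 8.20e-12). The replicates of Rian were nearly identical in both groups, so this 1.42-fold decrease exceeded their spread. Mirg, which holds 14 annotated microRNA hairpins, was at 6.83 and 6.26 in control and 7.71 and 8.42 in CF (log2 fold change -0.28 ± 0.097, limma adjusted p = 0.0110). The Mirg call was lost without control replicate 2 (log2 fold change -0.22, adjusted p = 0.0916), without CF replicate 2 (-0.23, adjusted p = 0.0890) and with quantile normalization (-0.084, adjusted p = 0.421). From Meg3 to Mirg the decrease became smaller, and the read ratio of Meg3 to Rian was 1.69 and 1.60 in control and 3.30 and 3.35 in CF.

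Peg3 and Zim1, neighbours on chromosome 7, were both lower. Peg3, a zinc finger protein expressed from the paternal chromosome (chr7:6703892-6730431), was at 101 and 105 scaled CPM in control and 561 and 568 in CF, 5.46-fold lower (log2 fold change -2.45 ± 0.05, limma adjusted p = 3.05e-19). Zim1, its maternally expressed zinc finger neighbour, was at 3.69 and 4.28 in control and 38.7 and 40.7 in CF (log2 fold change -3.17 ± 0.099, limma adjusted p = 2.17e-16). Usp29, a ubiquitin protease gene that starts next to Peg3 on the other strand and passed the minimum only through the fresh cells, had 18 and 8 reads in control and 131 and 115 in CF (log2 fold change -1.59 ± 0.14, limma adjusted p = 2.05e-09). Usp29 shares 2582 exon bases, 14.3% of its own, with Zim3 on the opposite strand, and Zim3 was at or near 0 in every library.

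In the Snrpn-Ube3a region on chromosome 7 the neighbours differed. Magel2, a regulator of ubiquitin ligases of the MAGE family, had 0 and 1 reads in control and 627 and 468 in CF. The ratio of its reads in control to those in CF, corrected for depth, was 0.000803 with a 95% interval of 2.03e-05 to 0.00449, which covers counting error only. Magel2 passed the minimum only through the fresh cells, so it had to be lower in control. Its fitted log2 fold change of -3.75 depends on the pseudocount (limma adjusted p = 1.03e-15). Ndn, the growth-restraining MAGE protein necdin encoded beside it, was at 62.1 and 66.8 scaled CPM in control and 91.0 and 90.5 in CF, only 1.41-fold lower (log2 fold change -0.49 ± 0.041, limma adjusted p = 1.20e-09). Ube3a, a ubiquitin ligase imprinted in neurons, went the other way, with 54.0 and 56.7 in control and 46.5 and 46.2 in CF (log2 fold change 0.25 ± 0.047, limma adjusted p = 5.00e-05). Snrpn, which shares 216 exon bases with Snurf, was listed at 0 in every library, so nothing is read from it.

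Of the remaining genes, 4 more were lower. Nnat, an endoplasmic reticulum proteolipid, was at 2.75 and 2.17 scaled CPM in control and 17.1 and 17.8 in CF (log2 fold change -2.61 ± 0.11, limma adjusted p = 1.43e-14). Ppp1r9a, the actin-binding protein neurabin, was at 24.3 and 24.7 in control and 85.6 and 90.5 in CF (log2 fold change -1.82 ± 0.048, limma adjusted p = 1.49e-17). Zdbf2, a zinc finger gene, was at 2.38 and 3.05 in control and 7.21 and 7.80 in CF (log2 fold change -1.32 ± 0.13, limma adjusted p = 9.93e-09). These 3 decreases were of the order of 2.50-fold to 6.10-fold, whereas Gnas was at 971 and 976 in control and 1533 and 1560.2 in CF, 1.59-fold lower (log2 fold change -0.67 ± 0.039, limma adjusted p = 5.00e-12). Impact, an inhibitor of the amino acid sensing kinase GCN2, had the largest increase of the genes tested, at 82.6 and 84.5 in control and 29.5 and 30.4 in CF, 2.76-fold higher (log2 fold change 1.46 ± 0.041, limma adjusted p = 3.25e-17). Grb10 was at 681 and 689 in control and 548 and 564 in CF (log2 fold change 0.30 ± 0.039, limma adjusted p = 6.81e-07), a call lost with quantile normalization (0.058, adjusted p = 0.176). Zrsr1, related to a splicing factor subunit, was at 16.5 and 16.4 in control and 15.04 and 14.9 in CF (log2 fold change 0.14 ± 0.058, limma adjusted p = 0.0359). The Zrsr1 call was lost without control replicate 1 (0.14, adjusted p = 0.0860), control replicate 2 (0.14, adjusted p = 0.0664), CF replicate 1 (0.14, adjusted p = 0.0887) or CF replicate 2 (0.12, adjusted p = 0.133). Peg10, Sgce, Trappc9 and Slc22a18 were not called, with log2 fold changes of 0.08, 0.026, 0.051 and -0.12. With quantile normalization Slc22a18 turned direction and was called higher (0.45, adjusted p = 0.0104). Without control replicate 1, Peg10 (0.13) and Trappc9 (0.16) were called higher. Peg10 was also called higher with upper-quartile scaling (0.11, limma adjusted p = 0.0260) and quantile normalization (0.096, limma adjusted p = 0.0356). The same held with edgeR (0.12, edgeR adjusted p = 0.0164).

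Markers of other cell types moved with this comparison. All 6 endothelial markers were lower in control, summing to 104 and 110.0 scaled CPM in control and 2708 and 2758 in CF. Kcnj8, Abcc9 and Rgs5, markers of pericytes, were also lower, with Abcc9 at 1.94 and 1.65 in control and 271 and 275 in CF, while Acta2 and Cspg4 of the same list of 6 were higher and Myh11 lower. Of 8 cardiomyocyte markers 6 were lower and Tnnt2 and Ryr2 higher, so that their sum was 2613 and 2395 in control and 1349 and 1372 in CF. Of 6 epicardial markers 4 were lower, with sums of 139 and 139 in control and 230.5 and 219 in CF. Macrophage markers were higher for 4 of the 5 in the table, with sums of 1379 and 1340.3 in control and 767 and 768 in CF. The erythroid marker Slc4a1 was at 0 in control, and Hba-a1, a main globin gene, was at or near 0 in every library. Fibroblast markers split into 3 higher, 3 lower and 2 not called. The part of these other cells in the decrease of imprinted genes was not tested.

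**Figure D3:**
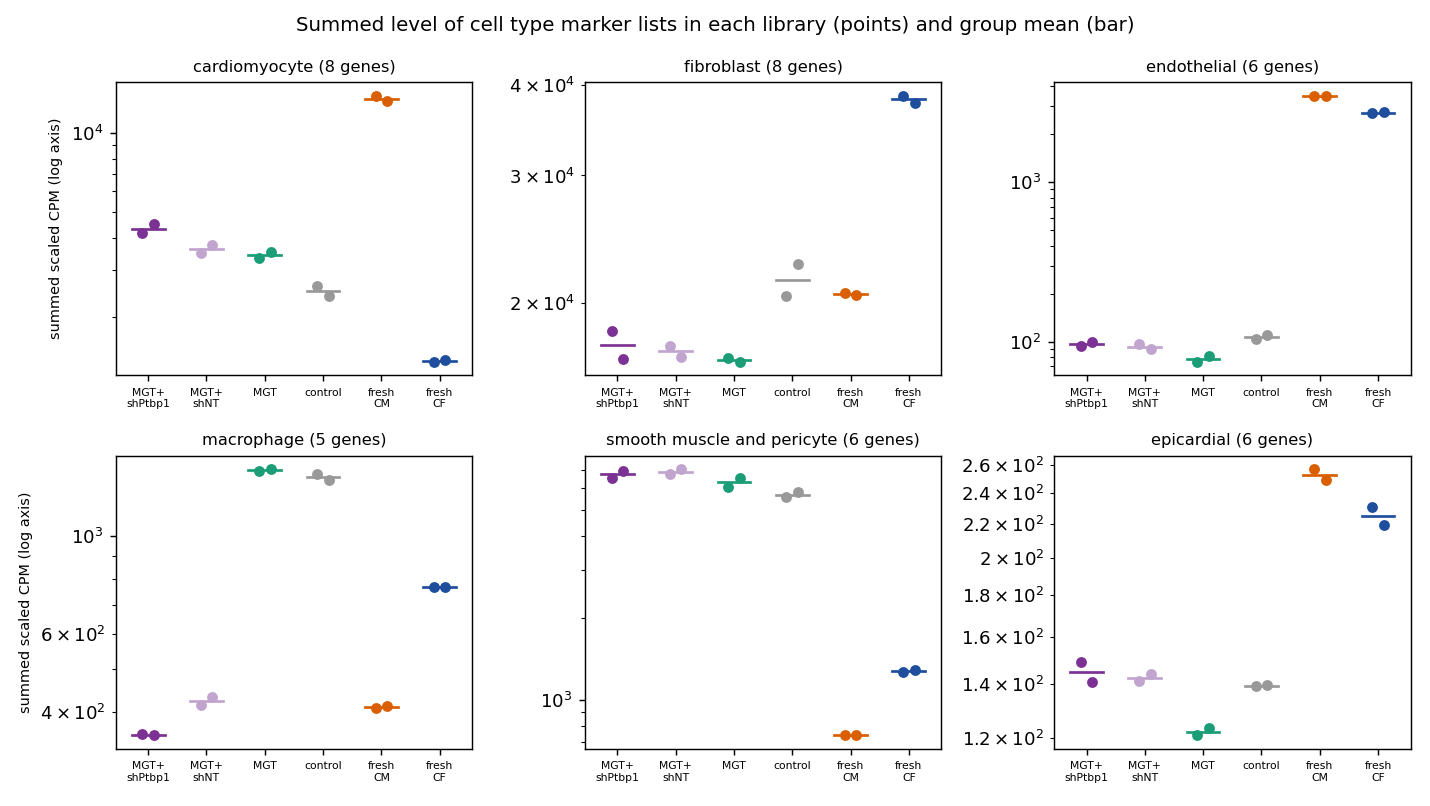
Summed scaled CPM of 6 lists of cell type markers on log axes that differ between panels; points are the 2 libraries of each group and bars their mean. Endothelial markers are far lower in all cultures than in fresh cells, and macrophage markers are lower in both hairpin groups than in MGT and control.

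The comparison of MGT + shNT with MGT sets cells that also received the non-targeting hairpin lentivirus beside cells that did not, and it shares no library with the comparison of control and CF. Here 20 of the 30 imprinted genes were higher in MGT + shNT, 2 were lower and 8 were not called. Across all genes tested 24.6% were higher and 20.1% lower. The median log2 fold change was 0.28 over the imprinted genes and 0.023 over all genes. Among the 27 genes at the minimum in both groups 20 were higher (74.1%), against 26.4% of 12286 genes. Of the 22 imprinted genes lower in control than in CF, 15 were higher in MGT + shNT than in MGT (68.2%) and 1 was lower (4.55%). Of the 6067 genes of all kinds lower in control than in CF, 29.5% were higher and 16.9% lower in MGT + shNT. The levels stayed far under those of fresh cells: Igf2 was at 142 and 142 scaled CPM in MGT + shNT and 3466 and 3539 in CF.

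**Figure D4:**
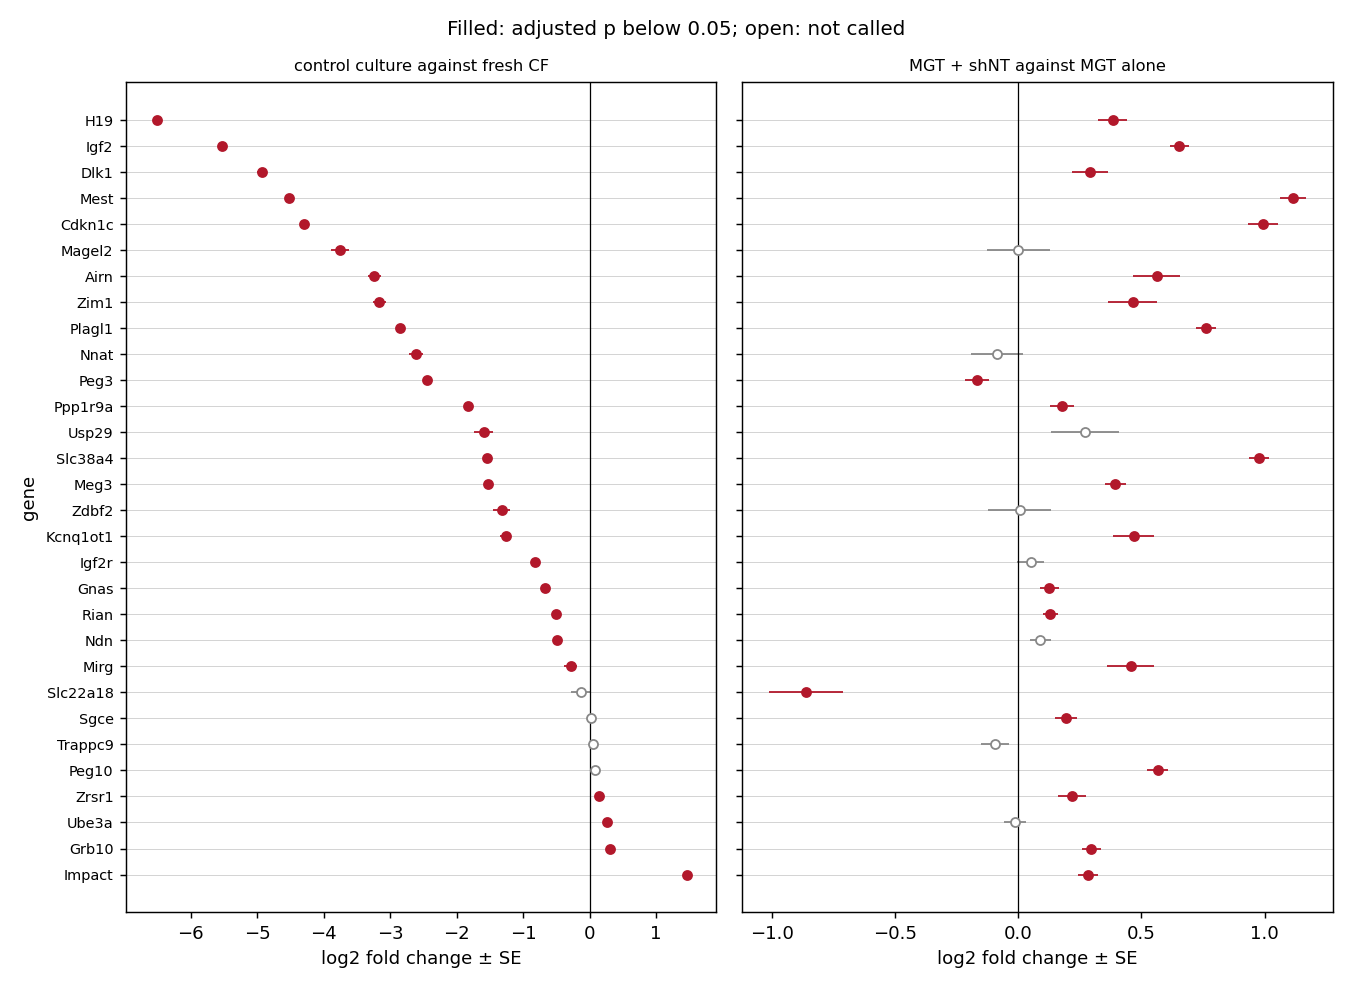
Log2 fold change ± SE of the 30 imprinted genes tested, in the same gene order in both panels: control against fresh CF on the left and MGT + shNT against MGT on the right, on different scales. Filled points passed an adjusted p of 0.05. Most genes lie left of 0 in the left panel, down to -6.51 for H19, and right of 0 in the right panel, up to 1.11 for Mest.

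The increases with shNT reached about 2-fold. Mest was at 129.98 and 129 scaled CPM in MGT + shNT and 57.3 and 61.9 in MGT, 2.17-fold higher (log2 fold change 1.11 ± 0.053, limma adjusted p = 2.26e-12). Cdkn1c was at 12.8 and 14.1 in MGT + shNT and 6.48 and 6.50 in MGT (log2 fold change 0.99 ± 0.06, limma adjusted p = 8.28e-11). Slc38a4 was at 66.4 and 67.6 in MGT + shNT and 32.9 and 34.6 in MGT (log2 fold change 0.98 ± 0.041, limma adjusted p = 3.30e-13). For all 3 genes the replicates of a group lay close together and the groups did not overlap. Plagl1 was at 90.8 and 95.9 in MGT + shNT and 52.9 and 56.9 in MGT (log2 fold change 0.76 ± 0.041, limma adjusted p = 1.50e-11). Igf2 was at 142 and 142 in MGT + shNT and 88.5 and 91.8 in MGT (log2 fold change 0.65 ± 0.039, limma adjusted p = 7.94e-11), and H19 at 52.4 and 56.2 in MGT + shNT and 40.5 and 42.6 in MGT (log2 fold change 0.38 ± 0.058, limma adjusted p = 2.29e-05). Both genes of the Igf2-H19 locus thus rose, Igf2 by 1.57-fold and H19 by 1.30-fold.

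Peg10, derived from a retrotransposon and needed for the placenta in mouse, was at 182 and 178 scaled CPM in MGT + shNT and 117 and 126 in MGT (log2 fold change 0.57 ± 0.044, limma adjusted p = 4.32e-09). Its head-to-head neighbour Sgce, epsilon-sarcoglycan, was at 102 and 107 in MGT + shNT and 91.3 and 91.8 in MGT (log2 fold change 0.19 ± 0.046, limma adjusted p = 0.00195). The silencing RNAs rose too: Airn was at 6.01 and 4.62 in MGT + shNT and 3.43 and 3.39 in MGT (log2 fold change 0.56 ± 0.095, limma adjusted p = 8.30e-05), and Kcnq1ot1 at 12.9 and 12.9 in MGT + shNT and 9.47 and 8.89 in MGT (log2 fold change 0.47 ± 0.082, limma adjusted p = 0.000116). Igf2r, the gene that Airn silences, was not called (log2 fold change 0.05 ± 0.055, limma adjusted p = 0.504). On chromosome 12, Meg3 was at 419 and 435 in MGT + shNT and 331 and 318 in MGT (log2 fold change 0.39 ± 0.042, limma adjusted p = 3.20e-07), and Mirg at 7.96 and 8.25 in MGT + shNT and 5.75 and 5.79 in MGT (log2 fold change 0.46 ± 0.097, limma adjusted p = 0.000781). Rian rose less, with 192 and 195 in MGT + shNT and 177 and 177 in MGT (log2 fold change 0.13 ± 0.031, limma adjusted p = 0.00220). Dlk1 was at 8.85 and 8.74 in MGT + shNT and 6.51 and 7.73 in MGT (log2 fold change 0.29 ± 0.072, limma adjusted p = 0.00288), a call lost without MGT replicate 1 (0.18, adjusted p = 0.0804).

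Zim1 was at 5.97 and 4.80 scaled CPM in MGT + shNT and 3.91 and 3.59 in MGT (log2 fold change 0.46 ± 0.099, limma adjusted p = 0.000803). Its neighbour Peg3 went the other way, with 111 and 107 in MGT + shNT and 119 and 126 in MGT (log2 fold change -0.17 ± 0.05, limma adjusted p = 0.0104). The Peg3 call was lost without MGT + shNT replicate 2 (-0.14, adjusted p = 0.0808), without MGT replicate 2 (-0.12, adjusted p = 0.131) and with no filter (-0.17, adjusted p = 0.0647). Grb10 was at 714 and 697 in MGT + shNT and 572 and 577 in MGT (log2 fold change 0.30 ± 0.039, limma adjusted p = 4.68e-06), and Impact at 108 and 105 in MGT + shNT and 86.6 and 88.3 in MGT (log2 fold change 0.28 ± 0.041, limma adjusted p = 1.29e-05). Smaller increases were called for Zrsr1 (0.22), Ppp1r9a (0.18) and Gnas (0.13), all as log2 fold changes. The call of Gnas was lost without MGT + shNT replicate 2 (0.11, adjusted p = 0.107) and without MGT replicate 1 (0.10, adjusted p = 0.115). That of Zrsr1 was lost without MGT + shNT replicate 2 (0.15, adjusted p = 0.104). Slc22a18, a transporter gene of the Kcnq1 cluster, had 59 and 28 reads in MGT + shNT and 120 and 104 in MGT and was lower (log2 fold change -0.86 ± 0.15, limma adjusted p = 0.000122). It was under 1 CPM in both MGT + shNT libraries. With no filter, or with one of 5 CPM, the genes called lower numbered 1.

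Macrophage markers moved with the addition of shNT: all 5 in the table were lower, with sums of 415 and 433 scaled CPM in MGT + shNT and 1406 and 1416 in MGT. Mrc1, which differed most, was at 31.8 and 31.8 in MGT + shNT and 255 and 249 in MGT. Endothelial markers stayed low in both groups, with sums of 96.1 and 89.5 in MGT + shNT and 74.9 and 81.1 in MGT, 4 of 6 being higher and Vwf lower. Fibroblast markers summed to 17452 and 16832 in MGT + shNT and 16775 and 16585 in MGT, with 4 of 8 higher, Postn among them, and Col3a1 lower. The part of these cells in the increase of imprinted genes was not tested.

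The comparison of fresh CM with fresh CF asks how the 2 cell preparations differ. Of the 30 imprinted genes 6 were higher in CM, 15 were lower and 9 were not called, against 35.2% higher and 41.7% lower of all genes tested. The median log2 fold change was -0.16 over the imprinted genes and -0.046 over all genes. The differences were much smaller than those between culture and fresh cells and ran from -1.40 to 1.22 on the log2 scale. The 30 genes were at the minimum in both groups. With no filter on low values 10 imprinted genes were called higher in CM, beside 5646 of 19967 genes of all kinds.

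Genes lower in CM included the 4 tested genes of the chromosome 12 cluster. Meg3 was at 389.9 and 391 scaled CPM in CM and 997 and 1014 in CF, 2.58-fold lower (log2 fold change -1.36 ± 0.042, limma adjusted p = 8.31e-16). Rian was at 182 and 181 in CM and 302 and 302 in CF (log2 fold change -0.74 ± 0.031, limma adjusted p = 9.27e-14), and Mirg at 4.56 and 4.36 in CM and 7.71 and 8.42 in CF (log2 fold change -0.79 ± 0.097, limma adjusted p = 5.40e-07). Dlk1 was at 109 and 116 in CM and 233 and 219 in CF, also lower (log2 fold change -1.001 ± 0.072, limma adjusted p = 2.88e-10). Rtl1 and Dio3 of the same cluster, both under the minimum for testing, had more reads per depth in CM than in CF, as given further on. Zim1 was at 14.9 and 14.6 in CM and 38.7 and 40.7 in CF (log2 fold change -1.40 ± 0.099, limma adjusted p = 2.08e-10), and Peg3 at 332 and 341 in CM and 561 and 568 in CF (log2 fold change -0.74 ± 0.05, limma adjusted p = 9.45e-11). Usp29 of the same locus had 82 and 156 reads in CM and 131 and 115 in CF and was not called (log2 fold change 0.26 ± 0.14, limma adjusted p = 0.0971). It was called higher without CM replicate 1 (0.40) and with a pseudocount of 2 (0.15, limma adjusted p = 0.0398).

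Nnat was at 8.26 and 7.81 scaled CPM in CM and 17.1 and 17.8 in CF (log2 fold change -1.07 ± 0.11, limma adjusted p = 2.66e-08), and Magel2 at 2.99 and 3.75 in CM and 6.55 and 6.10 in CF (log2 fold change -0.82 ± 0.13, limma adjusted p = 1.17e-05). Ppp1r9a was at 57.0 and 55.0 in CM and 85.6 and 90.5 in CF (log2 fold change -0.65 ± 0.048, limma adjusted p = 4.30e-10), and Ndn at 66.1 and 65.0 in CM and 91.0 and 90.5 in CF (log2 fold change -0.47 ± 0.041, limma adjusted p = 5.42e-09). Smaller decreases were called for Airn (-0.33), Slc38a4 (-0.31), Mest (-0.23), Cdkn1c (-0.17) and Impact (-0.17), all as log2 fold changes. The Cdkn1c call was lost without CM replicate 1 (-0.16, adjusted p = 0.0747) and without CF replicate 1 (-0.13, adjusted p = 0.143). Both MAGE genes, Magel2 and Ndn, were thus lower in CM, and Ube3a of the same region was not called (log2 fold change -0.084 ± 0.047, limma adjusted p = 0.108). Ube3a was called lower with upper-quartile scaling (-0.11, limma adjusted p = 0.0395) and with quantile normalization (-0.10, limma adjusted p = 0.0463).

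The genes higher in CM included both genes of the Igf2-H19 locus. H19 was at 6145 and 6097 scaled CPM in CM and 3993 and 4092 in CF (log2 fold change 0.60 ± 0.058, limma adjusted p = 1.89e-08), and Igf2 at 5152 and 5152 in CM and 3466 and 3539 in CF (log2 fold change 0.56 ± 0.039, limma adjusted p = 1.83e-10). Plagl1 was at 619 and 629 in CM and 381 and 376 in CF, 1.65-fold higher (log2 fold change 0.72 ± 0.041, limma adjusted p = 7.29e-12). Zdbf2 had the largest increase of the genes tested, with 17.4 and 18.995 in CM and 7.21 and 7.80 in CF (log2 fold change 1.22 ± 0.13, limma adjusted p = 5.74e-08). Zrsr1 was at 29.4 and 29.4 in CM and 15.04 and 14.9 in CF (log2 fold change 0.95 ± 0.058, limma adjusted p = 2.60e-11). Zrsr1 shares 412 exon bases with Commd1 on the opposite strand, which was also higher in CM (log2 fold change 0.71, limma adjusted p = 5.72e-10). Grb10 was at 613 and 598 in CM and 548 and 564 in CF (log2 fold change 0.12 ± 0.039, limma adjusted p = 0.00805), a call lost without CM replicate 1 (0.10, adjusted p = 0.0720), without CF replicate 1 (0.10, adjusted p = 0.103) and with quantile normalization (0.0076, adjusted p = 0.868). Igf2r, Kcnq1ot1, Slc22a18, Gnas, Peg10, Sgce and Trappc9 were not called, with log2 fold changes from -0.16 to 0.10. With only the 4 libraries compared, Igf2r (0.15, limma adjusted p = 3.17e-08) and Gnas (0.13, limma adjusted p = 4.54e-07) were called higher in CM. Peg10 was called higher there too (0.12, limma adjusted p = 0.000694). With quantile normalization Gnas and Peg10 were called higher, and with a robust prior Gnas was. Kcnq1ot1 was called lower with quantile normalization and edgeR. Sgce was called lower without scaling, with upper-quartile scaling, with edgeR and without CF replicate 2 (-0.15). Endothelial markers were higher in CM for 4 of 6, erythroid markers for the 3 tested, and macrophage markers were lower for all 5, with sums of 409 and 414 in CM and 767 and 768 in CF. Their part in the differences between CM and CF was not tested.

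The comparison of MGT with control gave small differences. Of the 30 imprinted genes 6 were higher in MGT, 3 were lower and 21 were not called. Among all genes tested 17.9% were higher and 17.7% lower, so the share of imprinted genes called was near the background. The median log2 fold change was 0.037 over the imprinted genes and -0.0077 over all genes. Mest was at 57.3 and 61.9 scaled CPM in MGT and 41.4 and 47.0 in control, 1.35-fold higher (log2 fold change 0.43 ± 0.053, limma adjusted p = 3.71e-06). Igf2 was at 88.5 and 91.8 in MGT and 73.0 and 78.4 in control (log2 fold change 0.25 ± 0.039, limma adjusted p = 5.56e-05), and Peg10 at 117 and 126 in MGT and 96.6 and 104 in control (log2 fold change 0.28 ± 0.044, limma adjusted p = 7.26e-05). These were paternally expressed genes, as was Peg3, at 119 and 126 in MGT and 101 and 105 in control (log2 fold change 0.25 ± 0.05, limma adjusted p = 0.000679). Most of the genes tested are paternally expressed: of these 17, 5 were higher, 1 lower and 11 not called. Of the 8 maternally expressed genes 0 were higher, 1 lower and 7 not called. Ppp1r9a was at 28.5 and 29.1 in MGT and 24.3 and 24.7 in control (log2 fold change 0.23 ± 0.048, limma adjusted p = 0.000988). Sgce was at 91.3 and 91.8 in MGT and 87.1 and 80.4 in control (log2 fold change 0.13 ± 0.046, limma adjusted p = 0.0342).

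Rian had the largest called decrease in MGT, at 177 and 177 scaled CPM in MGT and 212 and 212 in control (log2 fold change -0.26 ± 0.031, limma adjusted p = 2.45e-06), with replicates that agreed closely. Grb10 was at 572 and 577 in MGT and 681 and 689 in control (log2 fold change -0.25 ± 0.039, limma adjusted p = 4.88e-05), and Ndn at 58.7 and 59.1 in MGT and 62.1 and 66.8 in control (log2 fold change -0.13 ± 0.041, limma adjusted p = 0.0202). The Sgce call was lost without MGT replicate 1 (0.13, adjusted p = 0.0988), MGT replicate 2 (0.13, adjusted p = 0.135) or control replicate 2 (0.07, adjusted p = 0.324). The Ndn call was lost without MGT replicate 1 (-0.12, adjusted p = 0.0881), MGT replicate 2 (-0.13, adjusted p = 0.0839) or control replicate 2 (-0.078, adjusted p = 0.209). Without control replicate 2 the lower calls numbered 5, since H19 (-0.21, adjusted p = 0.00127), Meg3 (-0.14, adjusted p = 0.0294) and Nnat (-0.34, adjusted p = 0.0422) were then called lower, while Ube3a (0.15, adjusted p = 0.0456) was called higher. For H19 the values were 40.5 and 42.6 in MGT and 48.1 and 40.1 in control, which overlapped. Cdkn1c was nearly level, with 6.48 and 6.50 in MGT and 6.32 and 6.57 in control (log2 fold change 0.01 ± 0.06, limma adjusted p = 0.915). Fibroblast markers were lower for 7 of 8 and cardiomyocyte markers higher for 6 of 8 in MGT, with fibroblast sums of 16775 and 16585 in MGT and 20444 and 22628 in control. Their part in the differences of the imprinted genes was not tested.

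The comparison of MGT + shPtbp1 with MGT + shNT asks what lowering Ptbp1 changed in cells that received MGT. Of the 30 imprinted genes 3 were higher with shPtbp1, 9 were lower and 18 were not called. Across all genes tested 16.7% were higher and 18.1% lower. The median log2 fold change was -0.074 over the imprinted genes and -0.0011 over all genes. This comparison and that of MGT + shNT with MGT share the MGT + shNT libraries, so a gene high in those libraries moves both, in opposite directions.

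Zim1 had the largest called decrease with shPtbp1, at 2.80 and 2.77 scaled CPM in MGT + shPtbp1 and 5.97 and 4.80 in MGT + shNT (log2 fold change -0.83 ± 0.099, limma adjusted p = 2.63e-06). Cdkn1c was at 7.88 and 8.09 in MGT + shPtbp1, 12.8 and 14.1 in MGT + shNT and 6.48 and 6.50 in MGT, so that the shPtbp1 level lay 1.64-fold under that of shNT (log2 fold change -0.72 ± 0.06, limma adjusted p = 3.16e-08). Slc38a4 was at 44.3 and 43.4 in MGT + shPtbp1, 66.4 and 67.6 in MGT + shNT and 32.9 and 34.6 in MGT (log2 fold change -0.61 ± 0.041, limma adjusted p = 1.92e-09 for MGT + shPtbp1 against MGT + shNT). In both genes the shPtbp1 libraries stood between the shNT and the MGT libraries. Kcnq1ot1 was at 10.2 and 8.39 in MGT + shPtbp1 and 12.9 and 12.9 in MGT + shNT (log2 fold change -0.46 ± 0.082, limma adjusted p = 0.000232). Peg3 was at 89.7 and 77.8 in MGT + shPtbp1 and 111 and 107 in MGT + shNT (log2 fold change -0.38 ± 0.05, limma adjusted p = 8.62e-06), lower than in any other group. Airn was at 4.13 and 3.95 in MGT + shPtbp1 and 6.01 and 4.62 in MGT + shNT (log2 fold change -0.35 ± 0.095, limma adjusted p = 0.00824), a call lost without MGT + shNT replicate 1 (-0.17, adjusted p = 0.217). Grb10 was at 649 and 602 in MGT + shPtbp1 and 714 and 697 in MGT + shNT (log2 fold change -0.17 ± 0.039, limma adjusted p = 0.00179).

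Smaller decreases were called for Meg3, at 403 and 369.6 scaled CPM in MGT + shPtbp1 and 419 and 435 in MGT + shNT (log2 fold change -0.14 ± 0.042, limma adjusted p = 0.0120), and Plagl1, at 85.1 and 85.1 in MGT + shPtbp1 and 90.8 and 95.9 in MGT + shNT (log2 fold change -0.13 ± 0.041, limma adjusted p = 0.0169). The Meg3 call was lost without MGT + shPtbp1 replicate 2 (-0.083, adjusted p = 0.186) and without MGT + shNT replicate 2 (-0.12, adjusted p = 0.114). The Plagl1 call was lost without the same libraries (-0.13, adjusted p = 0.0579 and -0.09, adjusted p = 0.198), and with no filter both calls were lost (-0.14, adjusted p = 0.0551 for Meg3, -0.13, adjusted p = 0.0560 for Plagl1). Dlk1 was higher, with 10.6 and 11.3 in MGT + shPtbp1 and 8.85 and 8.74 in MGT + shNT (log2 fold change 0.30 ± 0.072, limma adjusted p = 0.00329), so it and Meg3 of the same cluster differed in opposite directions. Ndn was at 68.3 and 71.8 in MGT + shPtbp1 and 63.2 and 62.2 in MGT + shNT (log2 fold change 0.16 ± 0.041, limma adjusted p = 0.00578), a call lost without MGT + shPtbp1 replicate 2 (0.12, adjusted p = 0.0739). Slc22a18 was at 1.03 and 0.995 in MGT + shPtbp1 and 0.673 and 0.321 in MGT + shNT (log2 fold change 0.62 ± 0.15, limma adjusted p = 0.00342), a call lost without MGT + shNT replicate 2 (0.37, adjusted p = 0.0966). Without MGT + shPtbp1 replicate 1 the lower calls numbered 12, with Igf2r (-0.19, adjusted p = 0.0105), Peg10 (-0.16, adjusted p = 0.0252) and Ube3a (-0.16, adjusted p = 0.0265) added, and without MGT + shPtbp1 replicate 2, whose source label names shPtbp2, they numbered 7. Ube3a was also called lower without MGT + shNT replicate 2 (-0.16, adjusted p = 0.0471).

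Igf2, H19 and Mest, which rose with shNT, were not called with shPtbp1. Igf2 was at 143 and 152 scaled CPM in MGT + shPtbp1 and 142 and 142 in MGT + shNT (log2 fold change 0.054 ± 0.039, limma adjusted p = 0.312). Mest was at 125 and 138 in MGT + shPtbp1 and 129.98 and 129 in MGT + shNT (log2 fold change 0.017 ± 0.053, limma adjusted p = 0.847), and the groups overlapped. Macrophage markers were lower with shPtbp1 for 4 of 5, with sums of 357 and 354 in MGT + shPtbp1 and 415 and 433 in MGT + shNT, and cardiomyocyte markers were higher for 6 of 8. Their part in the differences of the imprinted genes was not tested.

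**Figure D5:**
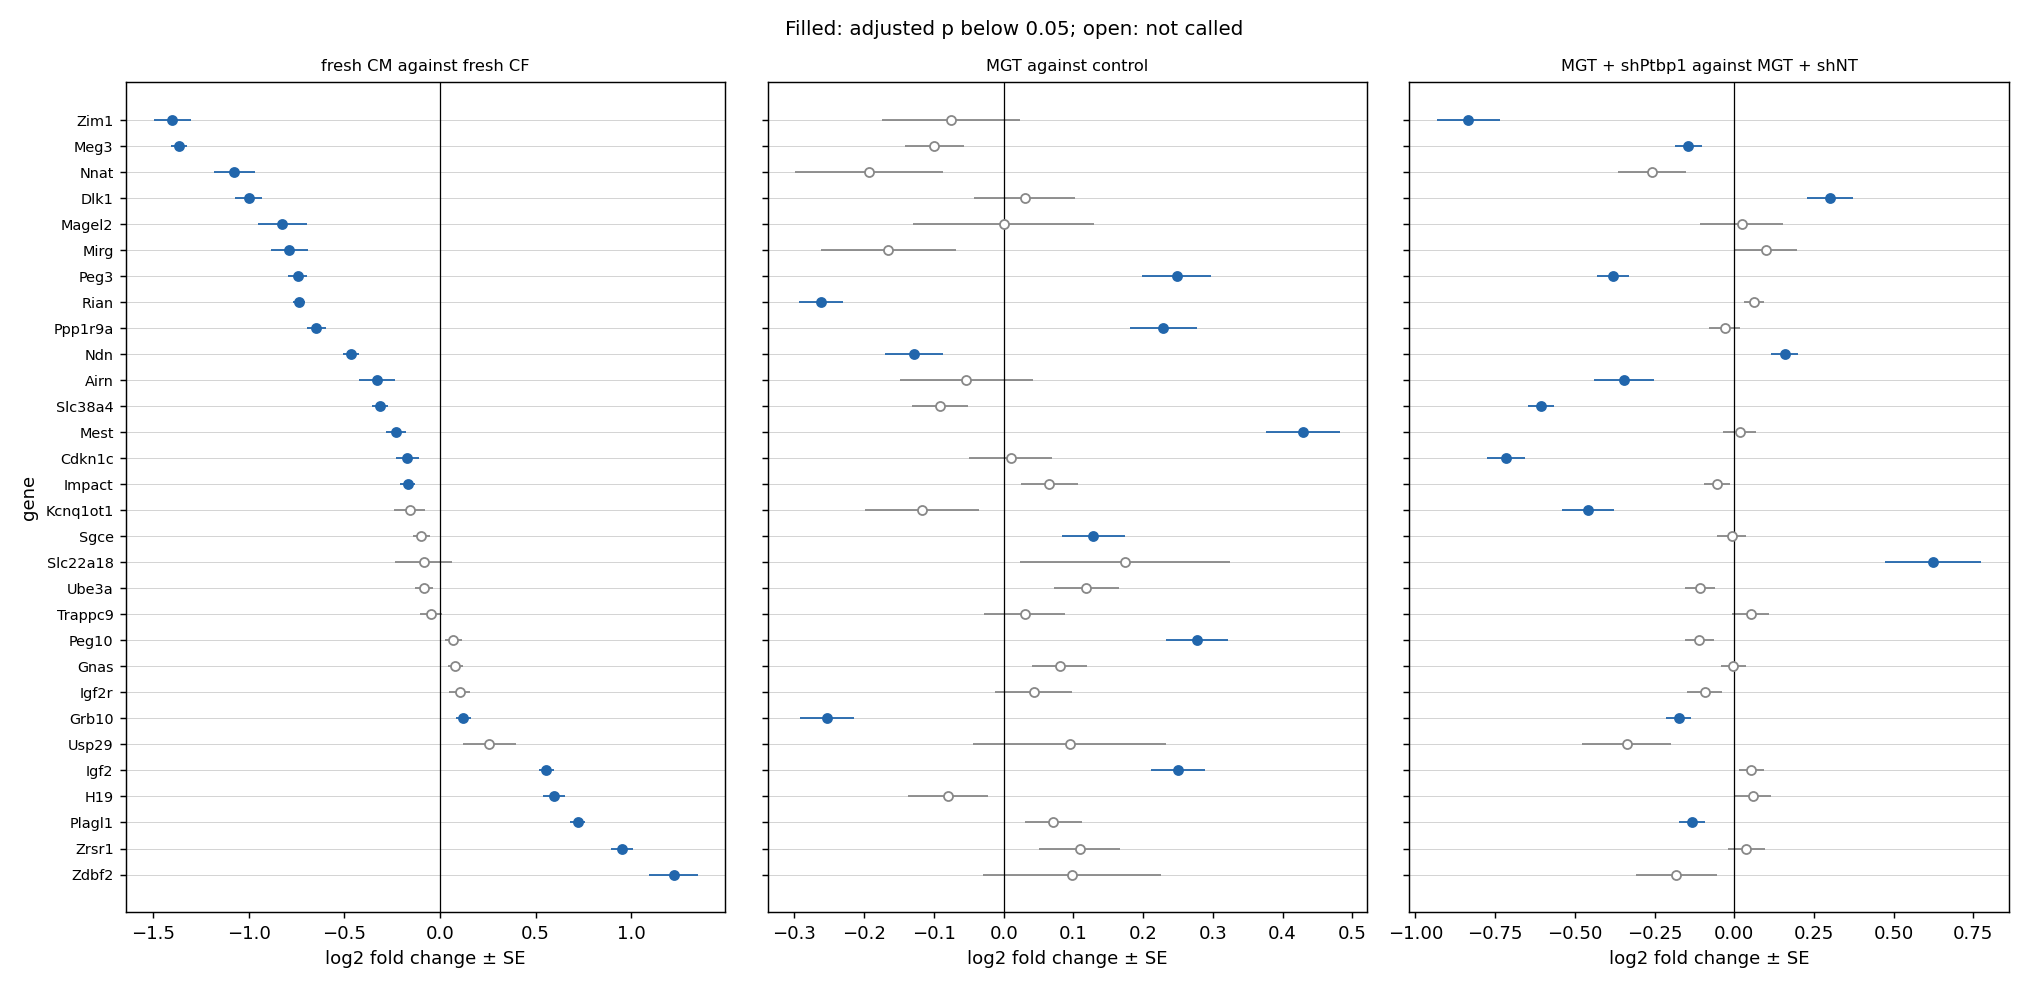
Log2 fold change ± SE of the 30 imprinted genes tested in CM against CF, MGT against control, and MGT + shPtbp1 against MGT + shNT, in the same gene order and on different scales. Filled points passed an adjusted p of 0.05. CM against CF ranges from -1.40 to 1.22, MGT against control stays within -0.26 and 0.43, and the lowest points with shPtbp1 are Zim1, Cdkn1c and Slc38a4.

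Over the 5 comparisons the 30 genes gave 90 calls. Among all genes, 35.2% were called higher and 41.7% lower in CM against CF, and 43.5% and 43.4% in control against CF. The shares were 17.9% and 17.7% in MGT against control, and 24.6% and 20.1% in MGT + shNT against MGT. In MGT + shPtbp1 against MGT + shNT they were 16.7% and 18.1%. The total of 90 is therefore not read as a result about imprinted genes. In each of the 90 the libraries of the 2 groups did not overlap, but with 2 libraries per group a call nearly requires this. Grb10 and Peg3 were called in all 5, and Trappc9, a subunit of a membrane trafficking complex, in none. Neither the overlaps nor the calls in all 5 were counted over all genes, so these counts describe the named genes only. Sorted by the parental chromosome known to be expressed in mouse, and counting only genes with at least 1 CPM in both libraries of each group, 7 of 8 maternally and 11 of 15 paternally expressed genes were lower in control than in CF, against 40.0% of all genes under that condition. With shNT, 6 of 7 maternally and 11 of 15 paternally expressed genes were higher than in MGT alone, against 26.4% of all genes under that condition. No test compared the maternally with the paternally expressed genes. Of the 5 genes imprinted only in some tissues or isoforms, Gnas and Ppp1r9a were lower in control than in CF and Grb10 and Ube3a higher.

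The 5 genes under the minimum are given as reads, with ratios corrected for depth and 95% intervals that cover counting error only. Phlda2, which limits placental growth in mouse, had 25 and 63 reads in CM and 9 and 3 in CF, a ratio of 9.82 (5.35 to 19.7). Rtl1, a retrotransposon-derived gene of the chromosome 12 cluster, had 38 and 57 reads in CM and 17 and 14 in CF, a ratio of 4.10 (2.71 to 6.37), and 1 and 2 reads in control. Its exons overlap microRNA genes on the opposite strand. Nap1l5, a nucleosome assembly protein-like gene, had 2 and 10 reads in control and 29 and 43 in CF, a ratio of 0.147 (0.0724 to 0.272). Dio3, the enzyme that inactivates thyroid hormone, had 18 and 15 reads in CM and 10 and 3 in CF, a ratio of 3.40 (1.74 to 7.04). In the cultures without hairpin it had 0 and 1 reads in MGT and 6 and 10 in control. Snrpn had none in any library.

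Regulators of imprinting were counted from a list of 22 genes of imprint maintenance and DNA methylation, 20 of which were tested. In control against CF 17 of the 20 were lower and 1, Eed, higher, with a median log2 fold change of -0.60, against 0.0038 over all genes. Ctcfl, at 0.668 and 0.689 scaled CPM in control and 1.54 and 1.47 in CF, reached the minimum for testing only through the fresh cells. It therefore had to be lower in control. The largest decreases were those of Tet1, which oxidizes methylated cytosine, at 7.39 and 9.37 scaled CPM in control and 30.4 and 31.6 in CF (log2 fold change -1.83), and the DNA methyltransferase gene Dnmt3b, at 3.56 and 3.72 in control and 12.4 and 12.4 in CF (-1.64). Tet2 (-1.59) and Arid4a (-1.04) followed. Of all genes 43.4% were lower and 43.5% higher there. In CM against CF 2 were higher and 14 lower, against 35.2% higher and 41.7% lower of all genes. With shNT 8 were higher and 4 lower than in MGT alone, against 24.6% and 20.1% of all genes, and among the lower was Dnmt1, the maintenance methyltransferase (-0.77). In MGT against control 4 were higher and 2 lower, against 17.9% and 17.7%, with Tet1 the largest increase (0.97). With shPtbp1 5 were higher and 6 lower than with shNT, against 16.7% and 18.1%, and Dnmt3b differed by -0.93. DNA methylation itself was not measured.

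Partners of Igf2 were counted from a list of 16 genes of insulin-like growth factor signalling, all tested. In control against CF 10 were higher and 6 lower, against 43.5% and 43.4% of all genes. Igfbp2, a secreted IGF-binding protein, was at 101 and 105 scaled CPM in control and 1.42 and 0.939 in CF (log2 fold change 5.96). Pappa, a protease that cleaves IGF-binding proteins, was higher (3.86), while Igfbp6 (-2.56) and Igfbp5 (-2.47) were lower. The other ligand, Igf1, was at 106 and 97.8 in control and 79.2 and 78.5 in CF (0.36), so it did not follow Igf2. In CM against CF 2 were higher and 10 lower, against 35.2% and 41.7% of all genes. In MGT against control 6 were higher and 5 lower, against 17.9% and 17.7%, with Igfbp5 at 1.23. With shNT 5 were higher and 5 lower than in MGT, against 24.6% and 20.1%, Igfbp4 by -1.55 and Igf1 by -1.13, against an increase of Igf2. With shPtbp1 5 were higher and 5 lower than with shNT, against 16.7% and 18.1%, Igfbp5 by 1.26 and Igf2bp3, which binds Igf2 messenger RNA, by -0.95.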

How the data were processed

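The authors deposited 1 table of CPM with 12 library columns; the submitters' processing notes name FastQC, HTSeq 0.6.1p1, TopHat2 2.1.0 and mm10, and per the labels' protocols a stranded mRNA kit was used. Neither the annotation nor the strand setting is given in the sources used here. The deposited CPM were whole multiples of 1 read for 100% of values within 0.1 reads, which gave back the reads and depths. CPM were divided by median-of-ratios factors (0.966 to 1.06), and a gene entered the tests if 2 or more libraries reached 1 CPM. Log2(scaled CPM + 0.5) was fitted in limma 3.58.1 (R 4.3.3) over all 12 libraries, giving each group its own mean (residual degrees of freedom: 6), with the trended eBayes prior and two-sided tests, with Benjamini-Hochberg adjustment per comparison over 13977 genes and a threshold of 0.05. Fold changes are on that log2(value + 0.5) scale, which understates changes of low genes, and errors are SE. The alternatives were other scalings (none, upper quartile, quantile), pseudocounts of 0.1 and 2, no filter, a filter of 5 CPM, a robust prior, only the 4 libraries compared, a replicate block, each library left out, and the quasi-likelihood test of edgeR 4.0.16, run on the read counts recovered from the deposited values. The members and lists were chosen with earlier results of these data known. Called imprinted genes whose higher mean reached 1 scaled CPM are described by locus, up to 20 in full per comparison, and each other list by its counts and at most 4 of its most changed called genes. Positions and exon lengths come from GENCODE vM21 (GRCm38, the mm10 build), and sequences from RefSeq tables (GRCm38.p6). Plots were drawn with matplotlib 3.10.9.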

Additional observations from a re-analysis of the deposited data

How the results depend on the processing

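Apart from leaving out libraries, the alternatives moved 2 of the 10 counts of imprinted genes by over 1.5 times. With no filter on low values, the genes higher in CM than in CF numbered 10 and those lower in MGT + shNT than in MGT numbered 1, and with a filter of 5 CPM the last count was also 1. Of all 19967 genes tested with no filter, 5646 were higher in CM than in CF. Leaving out 1 library at a time, the genes higher and lower numbered 5 to 6 and 14 to 16 in CM against CF, 3 to 5 and 21 to 22 in control against CF, 5 to 6 and 2 to 5 in MGT against control, 18 to 20 and 1 to 2 in MGT + shNT against MGT, and 2 to 3 and 7 to 12 in MGT + shPtbp1 against MGT + shNT. Where a group was left with 1 library, that library was assumed to vary like the other groups. Of 2233 values of single genes under the alternatives, 2154 kept their call or stayed uncalled, 42 lost the call and 36 gained it in the same direction. The only reversal was that of Slc22a18 in control against CF, uncalled at -0.12 and called at 0.45 with quantile normalization. The cause was not tested. edgeR on the recovered reads called 22 imprinted genes lower and 5 higher in control against CF, among 5862 and 6325 of all genes, and its 10 counts stayed within 1.5 times. Same-numbered libraries deviated together only weakly, with a correlation of -0.027 to 0.16 over the 5 comparisons and above 0.1 in 1 of 15 pairs of groups. That pair was MGT + shPtbp1 and MGT + shNT. With 2 libraries per group these values cannot show whether same-numbered libraries shared a preparation. With the replicate number as a block, the 10 counts stayed 6 and 15, 4 and 22, 6 and 3, 20 and 2, and 3 and 9, and 150 of 150 values kept their call. Without scaling the median of all genes in control against CF was -0.10 on the log2 scale, against 0.0038 with it. Genes with few reads, such as Dio3 and Phlda2 in the cultures, cannot be ranked at this depth. Cultured groups differ from fresh cells in culture, infection, time and the levels of the delivered factors together, which cannot be told apart.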

Other observations

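A further list of 41 mouse genes reported as imprinted, many of them in some tissues only, was read beside the 35; 30 of its genes were tested. In control against fresh CF 12 were higher, 13 lower and 5 not called, against 43.5% higher and 43.4% lower of all genes, and the median log2 fold change was -0.059 over the list and 0.0038 over all genes. The largest decreases were Kcnq1 (-3.38), the potassium channel gene of the Cdkn1c cluster, Begain (-2.92), the chloride channel gene Ano1 (-2.70) and Asb4 (-2.34). Kcnq1, at 0.323 and 0.192 scaled CPM in control and 7.29 and 7.43 in CF, reached the minimum for testing only through the fresh cells. The same held for Klf14 of this list, so both had to be lower in control. Peg13, a noncoding RNA inside an intron of Trappc9, was at 24.9 and 23.9 scaled CPM in control and 100.0 and 100.1 in CF, whereas Trappc9 itself was not called; this pair was chosen after its values were seen.

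In CM against CF 13 of the 30 were higher and 12 lower, against 35.2% and 41.7% of all genes. Ddc (2.92), Herc3 (1.75) and Kcnq1 (1.63) were the largest increases and Begain (-1.41) the largest decrease. In MGT against control 6 were higher and 6 lower, against 17.9% and 17.7%, with Cobl (0.83) and Asb4 (0.80) the largest increases. With shNT 8 were higher and 6 lower than in MGT, against 24.6% and 20.1%, among them Gatm (-1.89), a creatine synthesis enzyme, and Ano1 (-1.25). With shPtbp1 7 were higher and 5 lower than with shNT, against 16.7% and 18.1%, Ano1 by 1.08 and Tfpi2 by -1.02.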
